A study of Macaca mulatta with 11 samples.

Results

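The small leucine-rich proteoglycans, a family of secreted matrix proteins, were examined in mesenchymal stem cell cultures grown from the bone marrow of rhesus monkeys (Macaca mulatta) of different ages. The genes taken were DCN, BGN, LUM, FMOD, PRELP, OGN, OMD, ASPN and EPYC. A probe set, the group of short probes that reads 1 transcript on the array, was included where the platform's annotation gave it one of these 9 gene symbols, which selected 16 of 22215 probe sets and 9 of 11963 named genes. Each of the 16 carried a single symbol, and none was removed for a low level. DCN had 4 probe sets, BGN 3, PRELP and OMD 2 each, and the remaining 5 genes 1 each.

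RNA from each of 11 cultures was read on 1 array whose probes are annotated with human genes, and all were adherent marrow cells, selected by gradient centrifugation and plating, grown in medium with fetal bovine serum, harvested at passage 2 and given no treatment that the labels name. By their titles 4 arrays were fetal, 4 infant and 3 adult. In the fetal group the donors of arrays 1 and 2 were fetuses of gestation day 120, and those of arrays 3 and 4 were newborns. Infant donors were 6, 6, 3 and 5 months old for arrays 1 to 4, and adult donors 7, 7 and 8 years old for arrays 1 to 3. Marrow of the fetal-titled group was flushed from long bones and that of the infants and adults was aspirated, so that flushing and the fetal stage cannot be told apart. The labels do not say that cultures of one age came from separate animals, and p-values therefore measured only the spread between these cultures.

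Small leucine-rich proteoglycans share a core protein built of leucine-rich repeats, and most carry chondroitin, dermatan or keratan sulfate chains. They bind collagen fibrils and influence how thick and how regularly spaced the fibrils become, and several also hold growth factors such as TGF-beta in the matrix. Decorin and its close relative biglycan are made in quantity by stromal cells of bone and marrow. In the rhesus gene order EPYC, KERA, LUM and DCN follow each other, FMOD lies beside PRELP, and OGN, OMD and ASPN are adjacent, whereas BGN, an X-linked gene, has no other member next to it.

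Median intensities per array lay between 164.9 and 169.6, and with 3 or 4 arrays a group the intervals were wide. The first principal component of all probe sets, with 23.1% of the variance, placed infant arrays 1 and 2 and adult arrays 1 and 2 between -20.5 and -16.1 and the other 7 arrays between 6.70 and 19.5. Adult arrays 1 and 2 read 12.82 and 13.23 (log2) for IGLC1, an immunoglobulin light chain gene, against at most 9.10 elsewhere. Adult array 3 read 11.23 for XIST and 7.81 for RPS4Y1, where the other arrays read at most 8.40 and at least 11.30. Of the 10 mesenchymal stem cell marker genes all were measured, 8 of them above the median probe set, and the list's mean deviation from the all-array mean lay between -0.21 and 0.15 in every array. Results that turned on the adult arrays are given with and without them. Infant arrays 1 and 2 were left out 1 at a time and not together.

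Decorin, DCN, read lower in fetal than in infant or adult cultures, but the differences did not pass the test over all probe sets. Its brightest probe set, 201893_x_at, had log2 intensities of 12.74, 12.71, 12.68 and 13.50 in fetal arrays 1 to 4, 14.02, 14.27, 13.16 and 13.90 in infant arrays 1 to 4, and 14.12, 14.16 and 13.24 in adult arrays 1 to 3. Fetal arrays 1 to 3 were the 3 lowest of all 11, while fetal array 4 lay above infant array 3 and adult array 3, so the groups overlapped. The fetal mean was 12.91 ± 0.39 (SD, n = 4), the infant mean 13.84 ± 0.48 (SD, n = 4), and the adult mean 13.84 ± 0.52 (SD, n = 3). The fetal-minus-adult difference was -0.94 on the log2 scale (SE 0.28, 95% interval -1.53 to -0.34), a 1.91-fold lower intensity, with limma's adjusted p = 0.274. The fetal-minus-infant difference was -0.93 (SE 0.26, interval -1.48 to -0.38, limma adjusted p = 0.497). Infant and adult means differed by less than 0.01 with an interval from -0.60 to 0.59. In whole-culture RNA fewer cells that make a transcript and less of it per cell cannot be told apart.

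**Figure D1:**
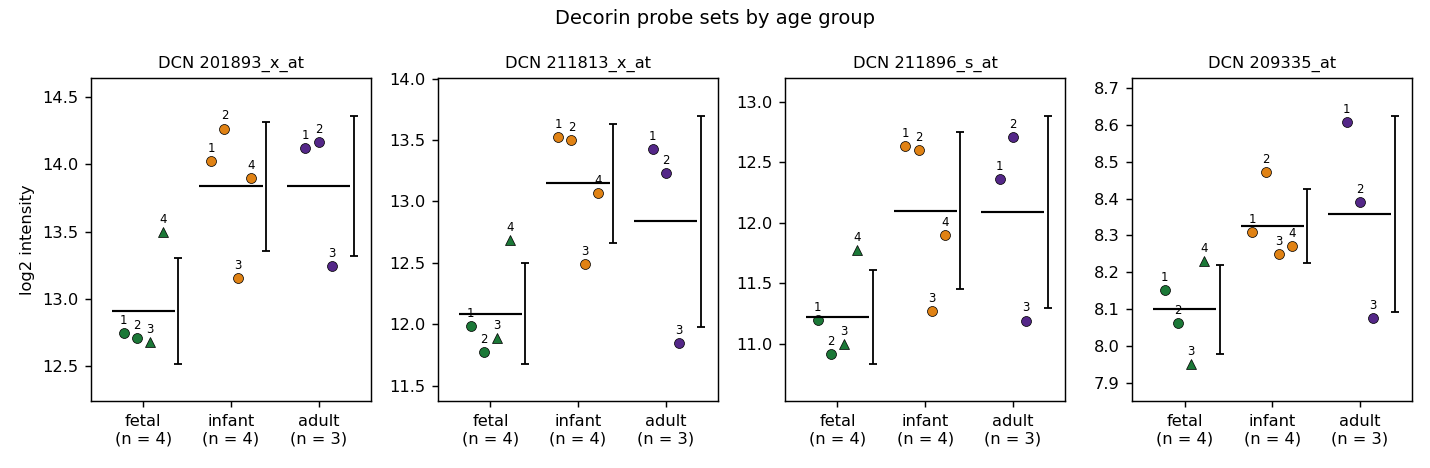
Log2 intensity of the 4 DCN probe sets in each array, by age group, with the replicate number above each point. Horizontal lines are group means, bars are ± 1 SD, and triangles mark newborn donors. For 201893_x_at fetal arrays 1 to 3 lie between 12.68 and 12.74 and infant arrays 1 and 2 and adult arrays 1 and 2 between 14.02 and 14.27.

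The other DCN probe sets kept the same order of fetal below infant and adult means. The probe set 211813_x_at read 11.99, 11.78, 11.89 and 12.69 in fetal, 13.53, 13.50, 12.49 and 13.07 in infant and 13.43, 13.23 and 11.85 in adult arrays. Adult array 3 thus lay within the fetal range there. Its fetal-minus-infant difference, -1.06 (SE 0.32, limma adjusted p = 0.546), was 2.09-fold, and its fetal-minus-adult difference was -0.75 (SE 0.35, limma adjusted p = 0.545). For 211896_s_at the fetal-minus-adult difference was -0.87 and the fetal-minus-infant difference -0.88 (limma adjusted p = 0.488 and 0.663). The dimmest DCN probe set, 209335_at, differed by -0.26 and -0.23 (limma adjusted p = 0.580 and 0.761). Its fetal arrays, at 7.95 to 8.23, lay just below its infant arrays, at 8.25 to 8.47, without overlap. Between infant and adult arrays the 4 probe sets differed by -0.03 to 0.31, and none passed. Across the 11 arrays the 3 brighter probe sets correlated with one another at 0.951 to 0.958 and with 209335_at at 0.841 to 0.884, values that describe readings of one gene in the same RNA. The suffix _x_at, which 201893_x_at and 211813_x_at carry, marks probes that can also match other sequences.

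Within the infant and adult groups decorin also varied widely between cultures. In every DCN probe set the infant arrays 1 and 2 and adult arrays 1 and 2, the 4 arrays on the negative side of the first component, read higher than all other 7. For 201893_x_at these 4 arrays lay at 14.02 to 14.27 and the other 7 at 12.68 to 13.90, and for 211896_s_at at 12.36 to 12.71 against 10.91 to 11.90. Infant array 4, at 13.90 for 201893_x_at, came next. The 4 arrays were those of the infants of 6 months and the adults of 7 years. Within each group this split therefore cannot be told apart from donor age, nor in the adults from the high XIST of array 3. Of all probe sets 1.89% separated the same 4 arrays upward, and among the 16 members the 4 of DCN alone did so. The component was computed from these arrays, and its part in the decorin difference between ages was not tested. A fit with the component, taken within the age groups, as a covariate cannot test it, because that covariate does not differ between the group means. In that fit the fetal-minus-adult difference of 201893_x_at stayed at -0.94, as such a covariate leaves it, and had a limma adjusted p of 0.0815. The covariate was drawn from the spread within groups in these same data, so it can lower p-values by construction. Without adult arrays 1 and 2 the difference was -0.33 (limma adjusted p = 0.935), a fit in which adult array 3 stood alone and was assumed to vary like the other groups. That fit gave 0.24, 0.027 and 0.023 for 211813_x_at, 211896_s_at and 209335_at. Without adult array 3 it was -1.24 (limma adjusted p = 0.0564), and without fetal array 4 it was -1.13 (limma adjusted p = 0.0953).

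**Figure D2:**
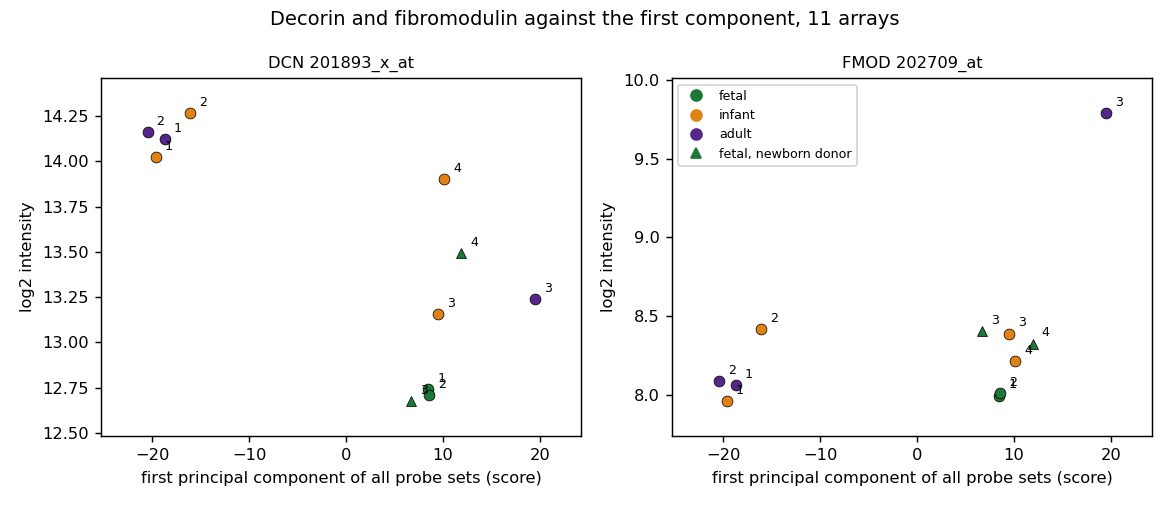
Log2 intensity of DCN (201893_x_at, left) and FMOD (202709_at, right) against the score on the first principal component of all 22215 probe sets, 1 point per array. The replicate number stands beside each point. The 4 arrays left of 0 hold the 4 highest DCN values, at 14.02 and above, and adult array 3 at the right holds the highest FMOD value, 9.79.

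The fetal group itself spans 2 stages, and decorin was compared between them. The gestation day 120 arrays read 12.74 and 12.71 and the newborn arrays 12.68 and 13.50 for 201893_x_at. The newborn-minus-gestation-day-120 difference was 0.36 (SE 0.37, limma adjusted p = 1.00), and it was -0.05 without fetal array 4. No member passed in that comparison, nor did any of the 22215 probe sets, of which 402 (1.81%) had an unadjusted p under 0.05, 0 members among them. The 2 stages did not overlap for 3 of the 16 members, FMOD and ASPN higher and OGN lower in newborns, against 28.8% of all probe sets.

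Biglycan, BGN, the relative of decorin that also binds collagen and TGF-beta and signals through innate immune receptors, did not differ between age groups beyond the spread. Its brightest probe set, 201261_x_at, read 9.08, 9.42, 8.97 and 9.18 in fetal, 9.03, 9.12, 8.91 and 9.17 in infant and 8.65, 8.63 and 9.60 in adult arrays. The adults held both the 2 lowest values, in arrays 1 and 2, and the highest, in array 3. The fetal-minus-adult difference was 0.21 (SE 0.20, interval -0.22 to 0.63, limma adjusted p = 0.819) and the infant-minus-adult difference 0.10 (SE 0.20, interval -0.32 to 0.52, limma adjusted p = 0.961). Without adult arrays 1 and 2 these became -0.43 and -0.54 (limma adjusted p = 0.415 and 0.265), and without adult array 3 they were 0.52 and 0.42 (limma adjusted p = 0.0935 and 0.384). All 3 BGN probe sets read highest in adult array 3, at 9.60, 9.29 and 8.84, the array in which the 4 DCN probe sets read lowest of the 3 adults. BGN is X-linked and adult array 3 is the one with high XIST; the part of donor sex in these values was not tested.

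Asporin, ASPN, a relative of decorin that lacks glycosaminoglycan chains and binds collagen and TGF-beta, read 7.23, 7.61, 7.78 and 7.63 in fetal, 8.00, 8.24, 7.29 and 7.54 in infant and 8.51, 7.70 and 7.45 in adult arrays. Infant arrays 1 and 2 and adult array 1 were the 3 highest, and all groups overlapped. The fetal-minus-adult difference was -0.32 (SE 0.25, interval -0.86 to 0.22, limma adjusted p = 0.769), and it was 0.12 without adult arrays 1 and 2. Infant and adult means, 7.77 ± 0.43 (SD, n = 4) and 7.89 ± 0.56 (SD, n = 3), differed by less than either SD.

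**Figure D3:**
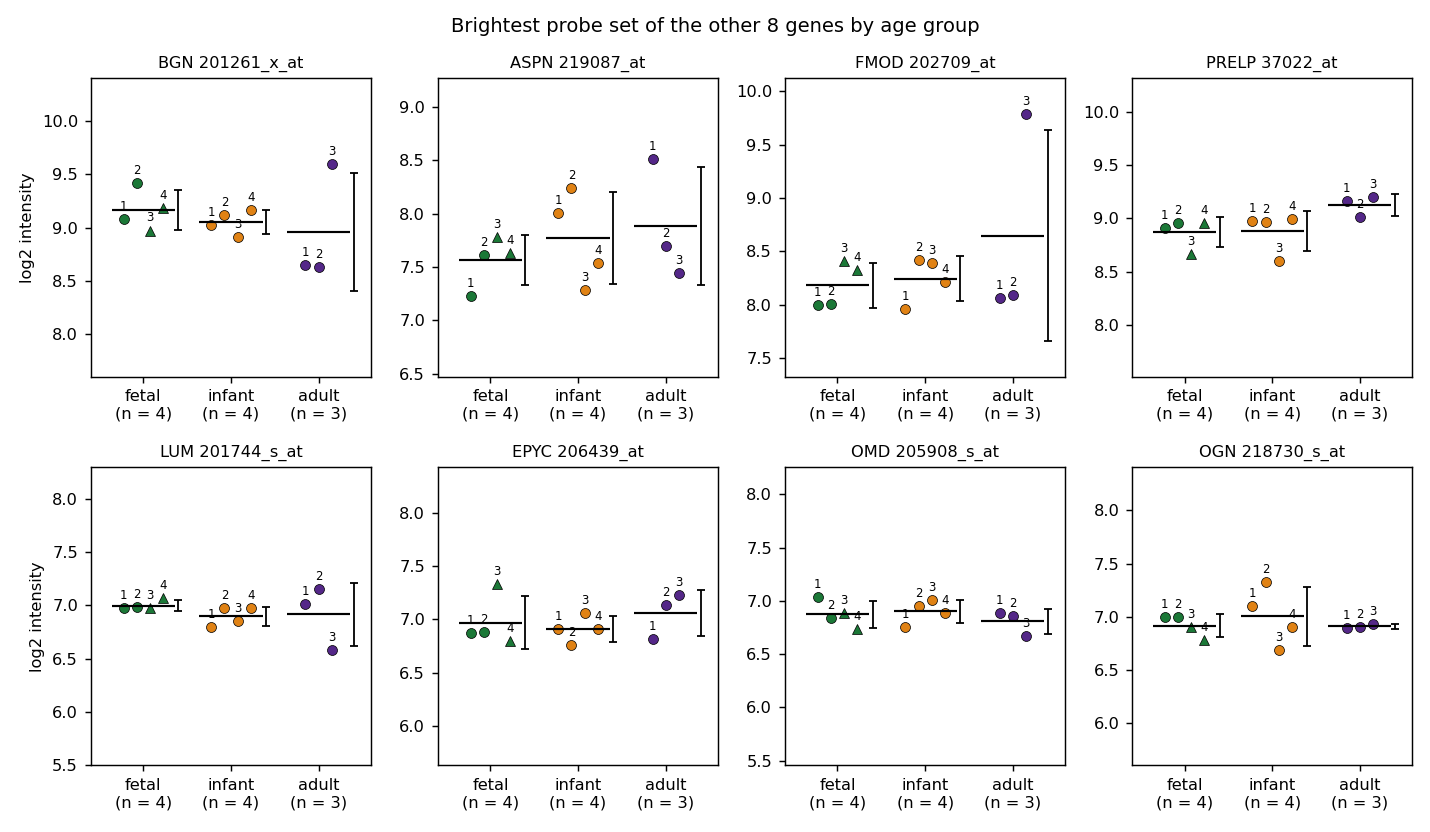
Log2 intensity of the brightest probe set of the other 8 genes in each array, by age group, on axes of equal span and different origin. Horizontal lines are group means, bars are ± 1 SD, numbers are replicates and triangles mark newborn donors. FMOD stands at 9.79 in adult array 3 and at no more than 8.42 elsewhere, while OMD and OGN stay between 6.67 and 7.33.

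Fibromodulin, FMOD, a keratan sulfate proteoglycan that regulates early collagen fibril assembly and is abundant in tendon and cartilage, was set apart by 1 culture. It read 7.99, 8.01, 8.40 and 8.32 in fetal, 7.96, 8.42, 8.39 and 8.21 in infant and 8.06, 8.09 and 9.79 in adult arrays. Adult array 3 exceeded every other array by more than 1 log2 unit, and adult arrays 1 and 2 lay within the fetal and infant ranges. The fetal-minus-adult difference was -0.46 (SE 0.32, limma adjusted p = 0.726) and the infant-minus-adult difference -0.40 (SE 0.32, limma adjusted p = 0.881). Without adult array 3 they turned to 0.11 and 0.17 (limma adjusted p = 0.856 and 0.838). With adult array 3 as the only adult they were -1.61 and -1.55 (limma adjusted p = 0.0123 and 0.0153), calls that rest on 1 array. In adult array 3 the mean deviation of 10 chondrocyte marker genes was 0.45 and that of 10 smooth muscle marker genes 0.50, the highest of all arrays for both, against -0.30 and -0.27 for the chondrocyte list in adult arrays 1 and 2. The mean deviation of 7 tenocyte marker genes in adult array 3 was -0.21, the second lowest of the 11 arrays. The summed intensity of the chondrocyte list ranged from 1973 to 8496 over the adult and from 2576 to 7840 over the fetal arrays. That sum gives most weight to ACAN, whose mean log2 was 10.91, where the others in the list had 6.72 to 8.10. Of the list 4 genes were higher and 6 lower in fetal than in adult arrays, with ACAN at 1.10 and COMP at -0.54. The part of these cell types in the fibromodulin value was not tested.

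PRELP, a heparin-binding member with a basic amino-terminal end that anchors basement membrane to connective tissue, read highest in the adults. Its brighter probe set, 37022_at, stood at 8.91, 8.95, 8.67 and 8.95 in fetal, 8.97, 8.97, 8.60 and 8.99 in infant and 9.17, 9.01 and 9.20 in adult arrays, so that every adult array lay above all the others. The fetal-minus-adult and infant-minus-adult differences were -0.25 and -0.24 (SE 0.12 for both), and neither passed (limma adjusted p = 0.564 and 0.810). The other probe set, 204223_at, differed by -0.35 in both comparisons (limma adjusted p = 0.511 and 0.770), with 8.50 in adult array 3, 7.72 and 7.97 in adult arrays 1 and 2 and 7.58 to 7.79 in the other 8 arrays. Without adult array 3 its differences were -0.13 in both, and those of 37022_at were -0.22 and -0.20. Fetal and infant means of both probe sets lay within 0.02 of each other.

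Lumican, osteoglycin, osteomodulin and epiphycan gave dim readings with little spread. LUM, a corneal and dermal keratan sulfate proteoglycan, lay between 6.58 and 7.15, OGN, also called mimecan, between 6.69 and 7.33, and EPYC, a cartilage growth plate proteoglycan, between 6.76 and 7.33. The 2 probe sets of OMD, a keratan sulfate proteoglycan of bone, lay between 6.57 and 7.04. Every one of these readings lay under 7.38, the median of all log2 values, and a change in these transcripts may not have been detectable. Among these 5 and the 2 dimmer BGN probe sets the largest difference between age groups was 0.15 in size, between infant and adult arrays, and none passed. Without adult array 3 the largest became 0.39, and with adult array 3 as the only adult 0.70. LUM read lowest in adult array 3, at 6.58, and EPYC read highest in fetal array 3, at 7.33.

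Over the family none of the 16 probe sets passed an adjusted p of 0.05 between any age groups, whereas limma called 29 of 22215 probe sets (0.131%) for fetal against adult arrays, 4 (0.018%) for infant against adult arrays and 0 (0%) for fetal against infant arrays. With the replicate numbers of the titles as a block the infant-to-adult count was 9, with 0 members among them. An unadjusted p under 0.05 was reached by 4 members between fetal and adult arrays, 3 of DCN and 1 of PRELP, against 8.96% of all probe sets. Between infant and adult arrays 1 member reached it, 204223_at of PRELP, against 6.19%, and between fetal and infant arrays 3 did, all of DCN, against 6.87%. DCN counts in these numbers as several readings of 1 gene. Without overlap between the groups stood 1 member each: 37022_at of PRELP for fetal and for infant against adult arrays, beside 8.08% and 4.98% of all probe sets, and 209335_at of DCN for fetal against infant arrays, beside 3.34%. The median fetal-minus-adult difference was -0.17 over the 16 probe sets and -0.01 over all. For infant minus adult both medians were -0.01, and for fetal minus infant they were -0.04 and 0.01.

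**Figure D4:**
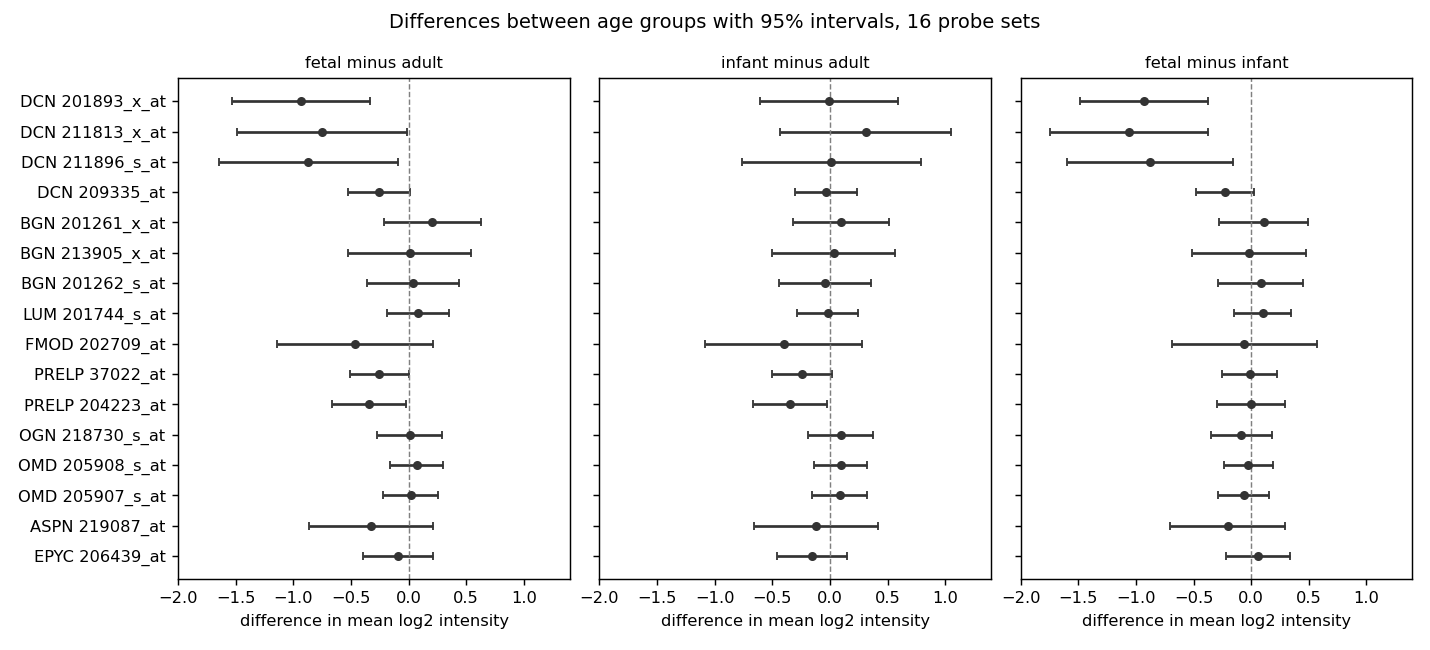
Differences in mean log2 intensity between age groups for the 16 probe sets, from limma's fit over all 11 arrays. Points are the differences and bars their 95% intervals, unadjusted for the number of probe sets. The intervals of the 3 brighter DCN probe sets lie below 0 in both comparisons with the fetal group, and most of the others cross 0.

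The spread between cultures of one age was large for several members. The within-group SD of the 3 brighter DCN probe sets, 0.46 to 0.61, exceeded that of at least 98.7% of all probe sets. That of FMOD, 0.53, exceeded 99.2% of them and that of ASPN, 0.41, exceeded 97.9%. The 3 BGN probe sets had within-group SDs of 0.29 to 0.41, above at least 91.4% of all probe sets. PRELP and the dim members varied less, with SDs above 18.5% to 75.2% of all probe sets.

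Pairs of members were compared on their deviations from the age group means, with 1 probe set per gene and an exact permutation test within the age groups. None of 36 pairs passed after adjustment. The neighbours DCN and LUM gave the smallest p for Pearson r, with Pearson r = 0.69 and Spearman rho = 0.69 over 11 arrays (exact permutation p = 0.0301 and 0.0359, adjusted 0.484 and 0.401), and r = 0.53 without the 2 arrays farthest from the DCN median. On log2 values with the group means kept, r for this pair was 0.20. LUM is a dim member and read an identical 6.97 in fetal arrays 1 and 3 and infant arrays 2 and 4. BGN and PRELP gave r = 0.50 and rho = 0.68 (exact permutation p = 0.0428 and 0.00289, adjusted 0.484 and 0.104). PRELP and EPYC gave r = -0.67 and rho = -0.37 (exact permutation p = 0.0394 and 0.166, adjusted 0.484 and 0.707), and r = -0.24 without 2 arrays. The other neighbours had values near 0: FMOD and PRELP stood at r = 0.02, OGN and OMD at -0.04 and OMD and ASPN at -0.06. BGN and FMOD, a pair chosen after its values were seen, had r = 0.79 (exact permutation p = 0.265), which became -0.37 without adult array 3. With the first component, taken within the age groups, removed, 1 pair fell under the threshold. It was BGN and OGN, at r = 0.87 (permutation, adjusted p = 0.0417) against 0.19 before. That component was computed from these same arrays, so shuffling what is left does not give an exact p-value. OGN is also one of the dim members, as are OMD and EPYC.

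The genes whose level followed a member most closely over the 11 arrays were picked among 7182 brighter genes, as a description without a test. For DCN they were EEF1A1, a translation elongation factor (r = 0.968), SQOR, a mitochondrial sulfide oxidoreductase (r = 0.946), and ATP6V1C1, a subunit of the vacuolar proton pump (r = 0.906). With age group means removed these stood at 0.980, 0.910 and 0.883. For ASPN they were CYB5A, COMMD10 and PMS2P3 (r = 0.909 to 0.914), and for BGN SAMD14, ABCF3 and NISCH (r = 0.884 to 0.925). The dim LUM was followed by GPKOW, ZC4H2 and PTPN11 (r = 0.900 to 0.946) and the dim OGN by ARPC1B, MYT1 and CD59 (r = 0.872 to 0.875). EEF1A1, CYB5A, PMS2P3, ZC4H2 and MYT1 were read by _x_at probe sets, whose probes can also match other sequences.

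The enzymes that build the sugar chains showed no called change. Of 22 genes for chondroitin and dermatan sulfate chains 17 were measured, and 0 passed in either comparison with adults. CHSY1, a chondroitin synthase, was nearest between fetal and adult arrays, at 0.38 (SE 0.12, limma adjusted p = 0.304), with the sulfotransferase CHST15 at 0.23 (adjusted p = 0.593). Between infant and adult arrays the polymerising factor CHPF stood at -0.47 and CHSY1 at 0.20 (limma adjusted p = 0.806 and 0.842). Of 9 keratan sulfate genes 7 were measured, and 0 passed: B4GALT1 and the sulfotransferase CHST2 differed by 0.24 and -0.22 between fetal and adult arrays (limma adjusted p = 0.646 and 0.711), and B3GNT2 and CHST2 by 0.24 and -0.25 between infant and adult arrays (limma adjusted p = 0.810 and 0.827). The median fetal-minus-adult difference was 0.06 for the first list and -0.04 for the second, and 0.00 for all 11963 genes.

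Among the collagens that these proteoglycans bind, 13 of 14 listed genes were measured and 1 passed between fetal and adult arrays. COL6A1, a chain of the microfibrillar collagen VI that binds biglycan and decorin, was higher by 1.09 in fetal than in adult arrays on the brightest of its 8 probe sets (SE 0.18, limma adjusted p = 0.0381), with adjusted p from 0.0107 to 0.175 over the 7 fits that left out 1 array. It passed in 2 of these, without fetal array 4 and without adult array 3, and not when fetal array 1, 2 or 3 or adult array 1 or 2 was left out. It also missed the threshold after quantile normalisation (0.0759), with an offset of 100 (0.0821), without the newborn arrays (0.134), without the gestation day 120 arrays (0.559) and without both adult arrays 1 and 2 (0.278), all as limma adjusted p. Between infant and adult arrays the fibrillar chain COL5A2 stood at -0.74 (SE 0.20) and COL6A1 at 0.54 (SE 0.18), and neither passed (limma adjusted p = 0.481 and 0.641). The other probe sets of COL6A1 were not read. COL6A2 and COL6A3, further chains of collagen VI, were higher by 1.26 and 0.12 in fetal than in adult arrays (limma adjusted p = 0.0571 and 0.890). The whole list had 7 genes higher and 6 lower in fetal than in adult arrays, with a median of 0.00.

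Of 14 genes for ligands and receptors of the family all were measured and 0 passed. TGFB1, whose product decorin binds, and the receptor TGFBR1 differed by 0.65 (SE 0.20) and -0.39 (SE 0.12) between fetal and adult arrays (limma adjusted p = 0.281 and 0.312). Between infant and adult arrays TGFBR1 stood at -0.47 and TGFB3 at -0.33 (limma adjusted p = 0.465 and 0.690). TGFBR1 was dim, with a mean log2 of 7.16, under the 7.38 median of all values. Of 10 genes for proteins that process the family or its collagen partners 9 were measured and 0 passed. PCOLCE, an enhancer of procollagen processing, stood at 0.68 and the membrane protease MMP14 at -0.51 between fetal and adult arrays (limma adjusted p = 0.259 and 0.300). BMP1, the protease that matures biglycan, stood at -0.41 and PCOLCE at 0.55 between infant and adult arrays (limma adjusted p = 0.561 and 0.690).

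Of 9 further family members 6 were measured, and 0 passed. PODNL1 and ECM2, the gene beside ASPN, differed by 0.20 and -0.26 between fetal and adult arrays (limma adjusted p = 0.662 and 0.741), and CHAD and KERA by -0.18 and -0.06 between infant and adult arrays (limma adjusted p = 0.847 and 0.950). PODNL1 and KERA were dim, with mean log2 values of 7.31 and 6.82, under the 7.38 median of all values.

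Markers of other cell types that the cultures could hold were read beside these results. Of 10 smooth muscle genes 9 were lower and 1 higher in fetal than in adult arrays, where 49.9% of all 11963 genes were higher. Called lower were 2 of the 10, beside 29 of 22215 probe sets (0.131%) called in either direction. Between infant and adult arrays 8 were lower and 2 higher, beside 45.3% of all genes higher. There 1 was called lower, beside 4 of 22215 probe sets (0.018%). The 10 genes had median differences of -0.66 and -0.25 in these comparisons, against 0.00 and -0.02 for all 11963 genes. Their summed intensity ranged from 12926 to 27866 in fetal, 23515 to 25644 in infant and 29009 to 31988 in adult arrays. Of 10 macrophage and leukocyte, 9 endothelial, 7 osteoblast, 7 tenocyte, 10 chondrocyte and 10 plasma cell genes measured, 0 were called between fetal and adult arrays. The plasma cell list had mean deviations of 0.59 and 0.72 in adult arrays 1 and 2, which read high for decorin, and between -0.28 and -0.05 elsewhere. Infant arrays 1 and 2, which read as high for decorin, had plasma cell deviations of -0.28 and -0.12. The part of these cell types in the decorin values was not tested.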

How the data were processed

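Intensities on a linear scale, 1 per probe set and array, were deposited by the authors. RMA, which corrects background, normalises between arrays and summarises probes, is named without a version in the submitters' processing notes. Log2 was taken with no offset or filter. Human-annotated probes read monkey RNA, so levels of different probe sets were not tested against each other. They were only ranked by brightness, or set against the median of all, to name dim and bright readings. How far a dim reading reflects a poor match of probes to monkey RNA was not tested. A model with a mean for each age group was fitted over all 11 arrays with limma 3.58.1 under R 4.3.3 (lmFit, eBayes), or with a mean for each stage for newborn against gestation day 120. Two-sided p-values were adjusted over all 22215 probe sets by Benjamini-Hochberg and called under 0.05. Of the probe sets 19065 had 1 gene symbol, 1043 several and 2107 none. No 2 arrays held identical values. Listed genes were read by their brightest single-symbol probe set, and named where called or among the 2 of smallest p. COL6A2 and COL6A3 were added beside COL6A1. The scripts were tested on simulated data.

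The members and gene lists were chosen with earlier results of these data known. Gene order came from RefSeq (assembly T2T-MMU8v2.0), used for neighbours only. The titles number the arrays of each group. Deviations from group means correlated at 0.145, 0.131 and 0.204 between infant and adult arrays of like number. Some arrays of unlike number correlated more, at 0.299 for infant array 4 with adult array 3 and 0.258 for infant array 2 with adult array 1. The other unlike pairs lay between -0.299 and 0.107. The numbers were therefore not set apart as pairs there, and the first component divides the arrays the same way. Alternatives changed the normalisation, offset, filter, moderation, array weights, groups in the fit, block, covariate, probe set and arrays.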

Additional observations from a re-analysis of the deposited data

Results flagged for a closer look

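Within the groups of 4 arrays, 32 groups of member values were examined for 1 array far from the other 3, and 6 stood out. The rule's nominal rate is about 1 in 20 for independent values. Several of these probe sets read the same gene, and the share over all probe sets was not computed. The count is therefore not read as an excess. In fetal array 4 DCN (201893_x_at) read 13.50 against at most 12.74 in the other fetal arrays. The dim LUM read 7.07 there against at most 6.98, with an identical value of 6.97 in fetal arrays 1 and 3. Fetal array 3 read low for PRELP (37022_at), at 8.67 against at least 8.91, and high for EPYC, at 7.33 against at most 6.88. Infant array 3 read 8.60 for PRELP (37022_at) against at least 8.97. Fetal array 2 read 6.57 for OMD (205907_s_at) against at least 6.80. The 3 adult arrays were too few for this check.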

How the results depend on the processing

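The fetal-minus-adult and fetal-minus-infant differences of DCN (201893_x_at) stayed below 0 under every alternative run, none of which left out infant arrays 1 and 2 together. When 1 array was left out the differences were -1.24 to -0.78 and -1.16 to -0.79. They passed in 1 fit, fetal against adult with the replicate block (-1.04, limma adjusted p = 0.0285), in which MMP14 also passed (-0.62). Whether the shared numbers mark pairs was not tested. Fetal and adult arrays of like number correlated at 0.068, 0.043 and -0.096, and those of unlike number at up to 0.168. Fetal and infant arrays of like number correlated at 0.116, 0.0077, 0.041 and 0.275. Those of unlike number lay lower at their highest, between -0.163 and 0.079, so a shared number there is left undecided. The infant-to-adult block changed no call of a member. Counts of called probe sets moved widely. Those with the component as covariate can rise by construction, since it was drawn from the spread in these same data. The 29 between fetal and adult arrays became 9 with an offset of 100, 120 with array weights, 16 with only the 2 groups, 221 with the block, 196 with the first component as covariate, 44 without adult arrays 1 and 2, 1 without the gestation day 120 arrays and 4 to 153 with 1 array left out. The 4 between infant and adult arrays became 8 with a robust intensity trend, 10 with weights, 2 with only the 2 groups, 9 with the block, 47 with the component, 44 without adult arrays 1 and 2 and 0 to 55 with 1 array left out. The 0 between fetal and infant arrays became 1 with a filter on dim probe sets, 1 with weights, 2 with the block, 11 with the component, 5 without newborn arrays and 0 to 21 with 1 array left out, and newborn against gestation day 120 gave 0 to 2. Members called were 1 with the block and 1, FMOD, in each comparison with adults without adult arrays 1 and 2 (-1.61 and -1.55).

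Signs turned as follows, and the cause was not tested. Without adult arrays 1 and 2, fetal minus adult was 0.24, 0.027 and 0.023 for DCN 211813_x_at, 211896_s_at and 209335_at, -0.43 for BGN, 0.12 for ASPN and 0.31 for ECM2; infant minus adult was 0.60 and 0.25 for DCN 201893_x_at and 209335_at, -0.54 for BGN, 0.32 for ASPN and -0.014 for CHSY1. Infant minus adult of DCN 211896_s_at was -0.18 with weights and -0.047 with the block, and that of the mean of the DCN probe sets was 0.071. Fetal minus infant of PRELP 37022_at was 0.0036 with weights and 0.050 without newborn arrays, and without gestation day 120 arrays FMOD was 0.12 and PRELP 204223_at 0.029. With 1 array left out, infant minus adult ranged from -0.31 to 0.22, -0.18 to 0.61, -0.44 to 0.32 and -0.17 to 0.092 for the 4 DCN probe sets by brightness, -0.068 to 0.42 for BGN, -0.34 to 0.19 for ASPN and -0.69 to 0.17 for FMOD. Fetal minus adult of FMOD ranged from -0.75 to 0.11, and fetal minus infant from -0.16 to 0.0022 for FMOD, -0.11 to 0.057 and -0.042 to 0.045 for PRELP 37022_at and 204223_at. Newborn minus gestation day 120 of DCN ranged from -0.051 to 0.77, an alternative chosen after seeing the data. Among correlations, PRELP with EPYC was 0.024 on the mean of probe sets, FMOD with PRELP -0.046 as Spearman rho and -0.0031 with the component removed, and OGN with OMD 0.031 on log2 values. With 1 array left out BGN with FMOD ranged from -0.37 to 0.89, FMOD with PRELP from -0.52 to 0.17, OGN with OMD from -0.24 to 0.35 and OMD with ASPN from -0.38 to 0.17. With the component removed 1 pair passed, by a p-value that is not exact. Readings under the median of all log2 values limit LUM, OGN, OMD and EPYC.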

Other observations

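Adult array 3 held the highest of the 11 values for 6 of the 16 probe sets, which were those of BGN, FMOD and PRELP, and the lowest for 2, which were those of LUM and 1 of OMD. Over all probe sets this array was highest for 12.2% and lowest for 10.4%. Fetal array 2 held the lowest value for 4 of the 16, against 5.91% of all probe sets.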
